A study of Mus musculus with 22 samples.

Results

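Axon guidance genes encode the ligands and receptors by which a growing axon finds its path. The 63 genes described here are the autosomal protein-coding genes of 8 families, taken by gene symbol from 20720 autosomal protein-coding genes of the basic GENCODE M21 annotation (GRCm38). There are 20 semaphorins, 4 netrins, 3 Slits and 7 ephrins, which make 34 ligands, and 7 plexins, 4 UNC5 receptors, 4 Robos and 14 Eph receptors, which make 29 receptors. The rule that picks them reads the gene symbol and no measured value.

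The ligands and receptors work in pairs. Semaphorins bind plexins and mostly repel axons, netrins attract or repel through DCC and the UNC5 receptors, Slits repel through Robo receptors, and ephrins signal to Eph receptor tyrosine kinases on a touching cell. Most of these genes act in neurons and in tissues of the embryo, and many are developmental genes of the kind that Polycomb repressive complex 2 (PRC2) marks in embryonic stem cells. EZH2 is the PRC2 subunit that trimethylates histone H3 at lysine 27 (H3K27me3, a mark of repressed promoters), MTF2 is an accessory PRC2 subunit that binds unmethylated CpG-rich DNA, and H3K4me3 marks promoters that are active or poised.

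Chromatin immunoprecipitation sequencing (ChIP-seq) was done on mouse embryonic stem cells grown with serum and LIF, a cytokine that keeps them undifferentiated. The wild-type groups were E14 cells, profiled for MTF2, EZH2, H3K27me3 and H3K4me3, and the gene-trap groups were ES cells labelled Mtf2 GT/GT, in which both copies of Mtf2 carry an insertion meant to disrupt the gene, profiled for EZH2, H3K27me3 and H3K4me3. Each of these 7 groups has 2 libraries and 1 list of peak positions, so 14 of the 22 samples are described, and the 8 libraries for input, Jarid2 and MTF2 in Jarid2 or Eed mutant cells were not analysed here. The labels do not name the line from which the gene-trap cells came, so genotype and line background cannot be told apart, and the trap itself was not checked, as MTF2 was listed in wild-type cells only.

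In such bulk cultures a mark in fewer cells and a weaker mark in every cell cannot be told apart. The lists held 6357 MTF2, 7213 EZH2, 6294 H3K27me3 and 27418 H3K4me3 peaks in wild-type cells, and 840 EZH2, 963 H3K27me3 and 26960 H3K4me3 peaks in gene-trap cells. They give positions only, with no height and no read count, so depth is unknown and a peak can be absent because the list missed it. As both libraries of a group share 1 list, the spread between replicates could not be measured and no comparison below was tested; intervals are exact Clopper-Pearson 95% intervals over genes and cover counting error only. Of 12 embryonic stem cell marker genes, 12 had promoter H3K4me3 in both cell types, and 1, Esrrb, also had MTF2, EZH2 and H3K27me3. All 4 endoderm markers and 6 of 6 neural markers had H3K27me3 in wild-type cells, as had 4 of 5 fibroblast markers of feeder cells.

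The stretches of DNA printed here show what MTF2 covered at guidance promoters. They were read from GRCm38 on the strand of the gene, 5′ to 3′, with each CpG in capitals, and each is the 300 bp nearest to the centre of the MTF2 peak that hold no annotated exon, except for Epha4, where it is the whole peak of 271 bp. Efna5, Slit2 and Plxnc1 have the widest EZH2 peak of their families. Unc5b and Ephb1 are shown because they kept H3K27me3 in gene-trap cells, and Epha4 because its MTF2 peak was narrow; these 3 were chosen after their values were seen.
Efna5: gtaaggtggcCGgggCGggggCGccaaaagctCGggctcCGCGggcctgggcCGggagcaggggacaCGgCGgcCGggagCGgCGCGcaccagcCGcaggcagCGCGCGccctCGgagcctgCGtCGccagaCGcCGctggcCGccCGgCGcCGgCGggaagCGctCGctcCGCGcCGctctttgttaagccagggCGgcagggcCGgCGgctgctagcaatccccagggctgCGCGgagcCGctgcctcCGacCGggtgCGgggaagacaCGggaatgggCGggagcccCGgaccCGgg
Slit2: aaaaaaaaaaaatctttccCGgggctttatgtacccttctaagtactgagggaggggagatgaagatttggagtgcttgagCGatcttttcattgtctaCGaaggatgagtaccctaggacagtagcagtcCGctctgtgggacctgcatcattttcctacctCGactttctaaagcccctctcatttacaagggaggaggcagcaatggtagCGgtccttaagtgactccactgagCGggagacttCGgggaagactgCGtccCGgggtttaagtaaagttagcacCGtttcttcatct
Plxnc1: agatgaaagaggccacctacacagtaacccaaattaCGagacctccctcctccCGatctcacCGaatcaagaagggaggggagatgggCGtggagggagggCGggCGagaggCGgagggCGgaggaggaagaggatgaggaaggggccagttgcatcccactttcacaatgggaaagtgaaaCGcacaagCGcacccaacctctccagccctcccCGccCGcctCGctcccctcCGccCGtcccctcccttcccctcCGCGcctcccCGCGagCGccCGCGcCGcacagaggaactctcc
Unc5b: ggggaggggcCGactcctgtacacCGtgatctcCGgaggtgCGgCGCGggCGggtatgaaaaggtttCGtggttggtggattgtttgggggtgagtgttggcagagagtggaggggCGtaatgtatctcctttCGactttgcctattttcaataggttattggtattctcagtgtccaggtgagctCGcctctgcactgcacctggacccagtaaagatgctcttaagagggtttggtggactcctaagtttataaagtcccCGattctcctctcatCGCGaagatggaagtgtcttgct
Ephb1: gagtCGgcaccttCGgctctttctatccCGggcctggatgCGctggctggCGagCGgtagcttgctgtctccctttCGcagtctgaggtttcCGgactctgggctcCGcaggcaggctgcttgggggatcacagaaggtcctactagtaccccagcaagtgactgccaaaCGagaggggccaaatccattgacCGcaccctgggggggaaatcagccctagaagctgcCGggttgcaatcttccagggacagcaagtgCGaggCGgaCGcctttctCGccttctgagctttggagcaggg
Epha4: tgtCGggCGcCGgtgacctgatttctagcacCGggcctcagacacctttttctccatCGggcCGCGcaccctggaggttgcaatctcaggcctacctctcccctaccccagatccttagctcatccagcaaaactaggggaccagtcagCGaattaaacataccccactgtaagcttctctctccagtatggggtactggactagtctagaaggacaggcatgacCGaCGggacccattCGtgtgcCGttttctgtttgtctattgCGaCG

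The Efna5 stretch lies at chr17:62880706-62881005 on the minus strand, in intron sequence 462 bp into the gene from the transcription start site (TSS), and holds 45 CpG and 41 GCG triplets counted on both strands. The Slit2 stretch, chr5:47985669-47985968 on the plus strand, is intronic and 2680 bp into the gene, away from the peak centre at 1753 bp and outside the promoter window, and holds 11 CpG and 5 GCG. The Plxnc1 stretch, chr10:94944836-94945135 on the minus strand, ends just before the TSS and holds 23 CpG and 23 GCG. Over the 1 kb around the reference TSS these genes had 11.7 (Efna5), 6.90 (Slit2) and 13.0 (Plxnc1) CpG per 100 bp. The Unc5b stretch (chr10:60830316-60830615, minus strand, intronic) holds 14 CpG, and the Ephb1 stretch (chr9:102353606-102353905, minus strand, intronic) holds 16. The Epha4 peak (chr1:77514145-77514415, minus strand, intronic, 808 bp into the gene) holds 14 CpG and 7 GCG.

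In the 300 bp at the centre of each MTF2 peak, the 49 peaks at guidance promoters had a median of 23 CpG (range 7 to 59) and 16 GCG, and 49 of 49 held at least 1 GCG on either strand. Over all 6195 autosomal MTF2 peaks the medians were 23 CpG and 17 GCG, and 99.0% held a GCG, so the members' MTF2 peaks had medians close to those of MTF2 peaks at large. Over the 1 kb around the reference TSS, guidance promoters had a median of 6.70 CpG per 100 bp, and members with an MTF2 peak had 7.20 against 5.90 in those without. Over all autosomal genes the median was 4.50, with 6.50 in genes with MTF2 and 3.70 in those without. The richest were Plxna1 (13.8 CpG per 100 bp) and Plxnc1 (13.0), both with MTF2. Sema3a was the poorest of all members at 0.300. Its narrow MTF2 peak of 346 bp was centred 2704 bp into the gene from that TSS, near another TSS. The 0.300 thus does not describe the DNA under the peak. The next lowest were Robo4, Sema3b and Sema3g, the last 2 at 1.40, and none of these had MTF2. Members with and without MTF2 overlapped widely, however. Ephb2 (10.7), Plxnb1 (10.6) and Plxnb2 (9.80) were rich in CpG and had no MTF2. Epha10 (2.50), Robo2 (3.70) and Ntn1 (4.10) were poor in CpG around the reference TSS and had it. CpG density there thus did not separate members with MTF2 from those without.

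In wild-type cells most guidance promoters carried all 3 Polycomb marks. A promoter here is the sequence within 1 kb of any TSS of a protein-coding transcript, and a gene had a mark if a peak touched it. MTF2 touched 42 of 63 promoters (66.7%, interval 53.7 to 78.0), against 16.4% of all autosomal genes. EZH2 touched 44 (69.8%, 57.0 to 80.8; 17.1% of all genes) and H3K27me3 46 (73.0%, 60.3 to 83.4; 20.0% of all genes). H3K4me3 touched 60 (95.2%; 67.0% of all genes). All 4 marks were present together at 42 guidance promoters (66.7%) and at 15.1% of all genes. Each of the 42 members with MTF2 thus had the other 3 marks, as had 92.0% of all genes with MTF2. These counts are per promoter, and the peaks need not overlap. At Epha4 the MTF2 peak had 0 bp under H3K27me3. The 46 members with H3K27me3 also had H3K4me3, the combination known as bivalent, as had 94.9% of all genes with H3K27me3; the lists do not show whether both marks sat on the same copies of a gene.

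**Figure D1:**
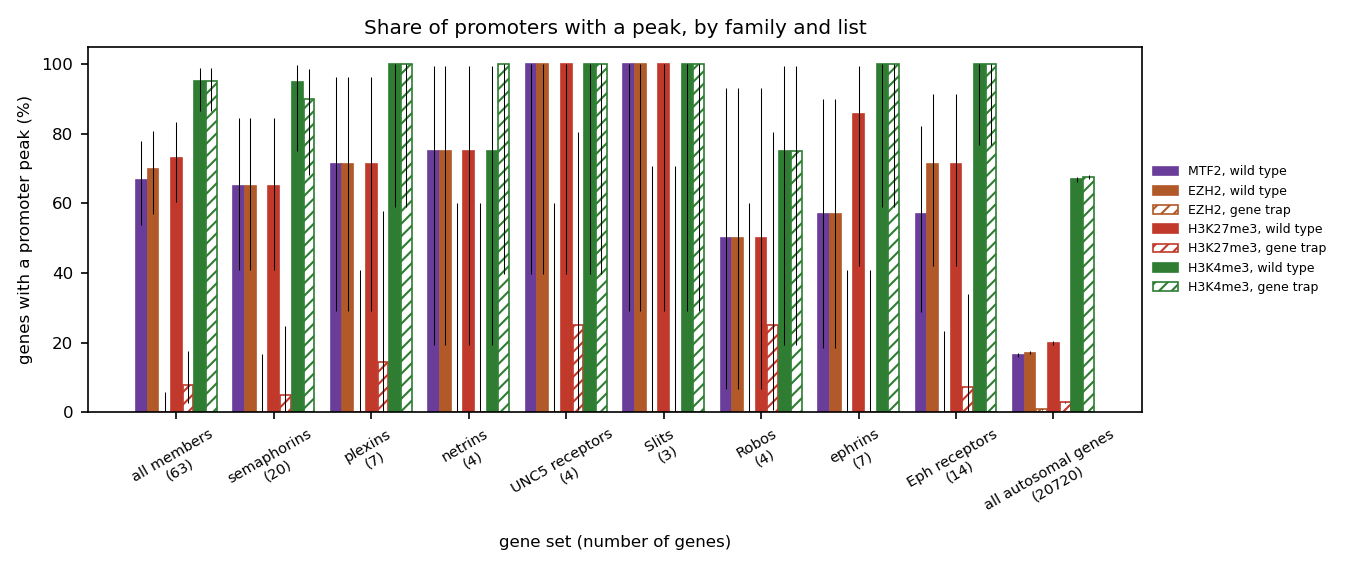
Share of promoters with a peak (percent, vertical axis) in each of the 7 lists, by family (horizontal axis, with the number of genes) and for all autosomal genes; bars start at 0 and lines are exact 95% intervals over genes. The H3K27me3 bar of all members stands at 73.0% in wild-type cells and 7.94% in gene-trap cells, and the EZH2 bar in gene-trap cells is at 0.

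Ligands and receptors both carried the marks. MTF2 was found at 23 of 34 ligand genes (67.6%) and 19 of 29 receptor genes (65.5%). The UNC5 receptors (4 of 4 with MTF2, EZH2 and H3K27me3) and Slits (3 of 3) were marked in full. Netrins had 3 of 4, plexins 5 of 7, semaphorins 13 of 20 and Robos 2 of 4 with each of these marks. Among ephrins MTF2 and EZH2 touched 4 of 7 and H3K27me3 6 of 7, and among Eph receptors MTF2 touched 8 of 14 while EZH2 and H3K27me3 touched 10. The intervals of the smaller families span most of the range (6.76 to 93.2% for the Robos), so an order of families cannot be read from these counts.

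Within a family the Polycomb marks sat on some members and not on others. The 14 members with H3K4me3 and no Polycomb mark were Sema3b, Sema4a, Sema4b, Sema4d, Sema4g and Sema6c, the plexins Plxnb1 and Plxnb2, Robo1, Efna4, and the Eph receptors Epha1, Epha2, Ephb3 and Ephb4 (22.2% of members; 46.9% of all genes). No list touched the promoters of Sema3g, Robo4 and Ntn5 in wild-type cells (4.76%; 32% of all genes); Robo4 is the Robo of blood vessel endothelium. Class 4 semaphorins, which are membrane bound, had Polycomb marks at Sema4c and Sema4f and none at Sema4a, Sema4b, Sema4d and Sema4g. Class A plexins (Plxna1, Plxna2 and Plxna4), Plxnc1 and Plxnd1 had them and the class B plexins did not. The H3K4me3 peak of Epha2, a receptor of epithelial and stem cells, was 17039 bp wide, the widest of any member, and the median over the 60 members with H3K4me3 was 2464 bp. Among the 14 members with H3K4me3 alone the width ran from 426 bp at Sema4a to that of Epha2, with Epha1 (1721 bp) and Sema4d (1794 bp) also narrow and Sema4b (13461 bp) and Plxnb2 (10282 bp) also wide.

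**Figure D2:**
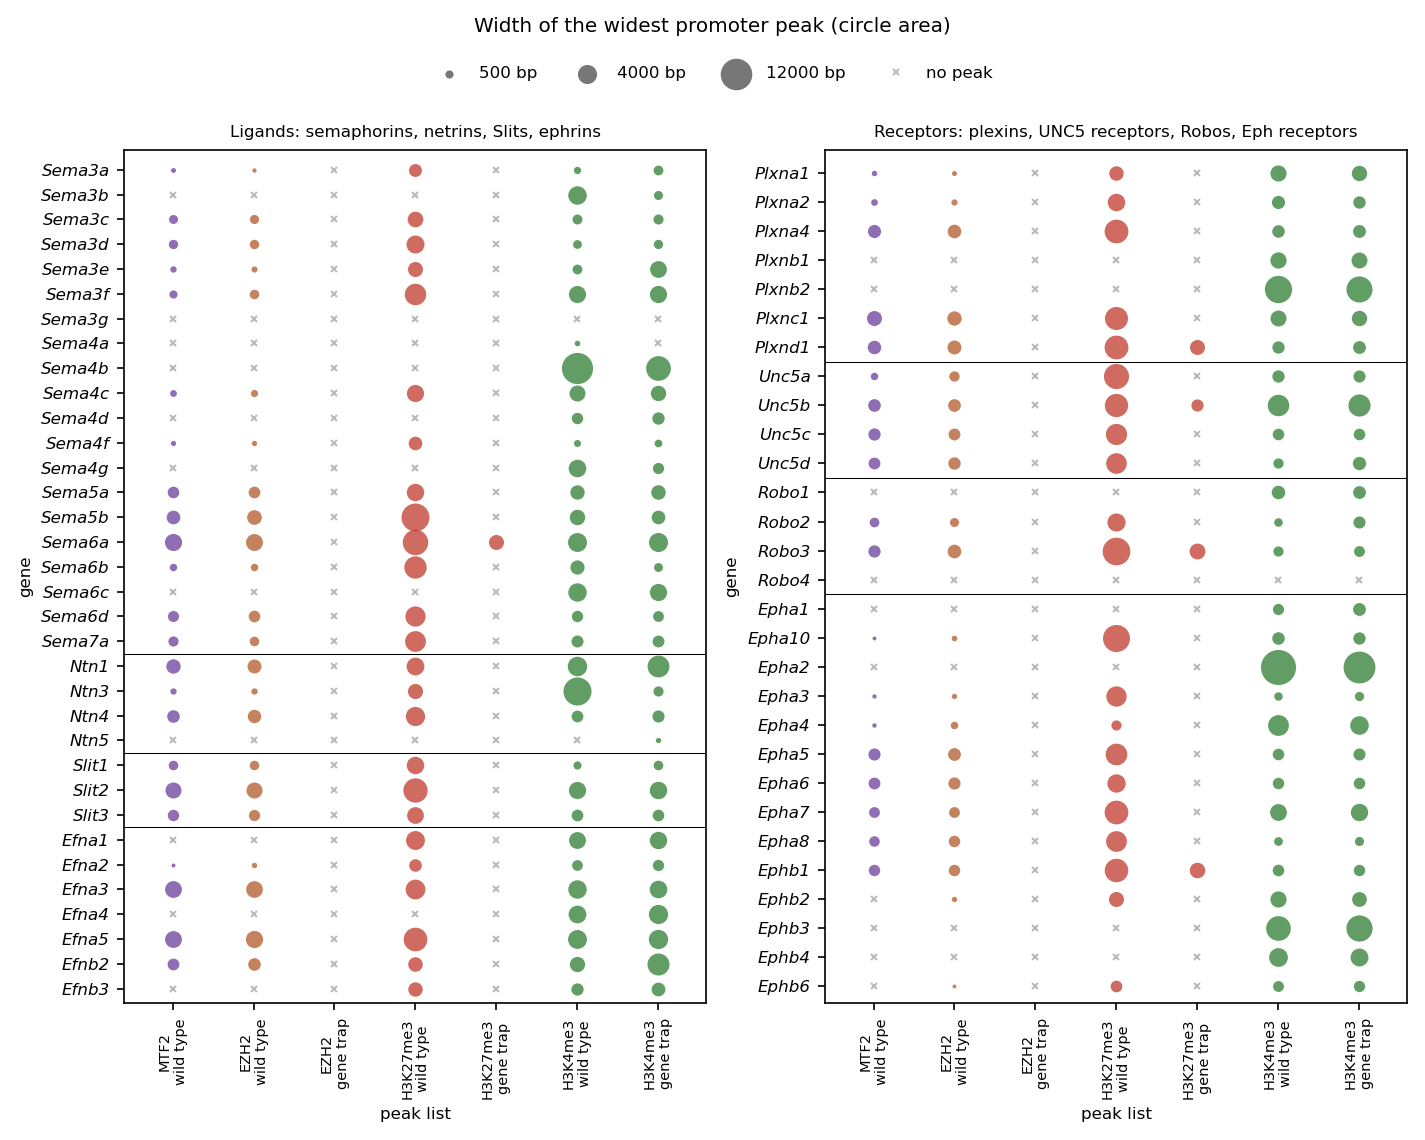
Width of the widest promoter peak (circle area, bp) for each of the 63 genes (vertical axis) in each of the 7 lists (horizontal axis). Ligands are in the left panel and receptors in the right, and a grey cross is a promoter with no peak. The column of gene-trap EZH2 holds crosses only, and 5 circles remain in that of gene-trap H3K27me3.

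Polycomb peaks at guidance promoters were wider at the median than those of all genes with the mark, but none was among the very widest. The widest promoter peak of a member had a median of 1656 bp for MTF2 (range 207 to 4060), 1684 bp for EZH2 (206 to 4098) and 5233 bp for H3K27me3 (1428 to 10789). Over all genes with the mark the medians were 1113, 1159 and 4244 bp, and the widest peaks were 19222, 34766 and 133253 bp. The EZH2 peak was about as wide as the MTF2 peak of the same promoter (median ratio 1.04 over 42 members; 1.05 over all genes). H3K27me3 reached further, at a median of 3.49 times the EZH2 width, and was wider than EZH2 at 44 of 44 members. Over all genes the median was 3.83, and H3K27me3 was wider at 3351 of 3354. Of 49 MTF2 peaks, 43 (87.8%) lay wholly inside 1 H3K27me3 peak, close to the 88.4% of MTF2 promoter peaks over all genes. The centre of the MTF2 peak lay downstream of its nearest TSS in 42 of 49 cases (85.7%), at a median of 384 bp into the gene, against 75.9% and 229 bp over all genes.

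Among the semaphorins the widest EZH2 peaks were those of Sema6a, a transmembrane repellent, and Sema5b. At Sema6a the widths were 4060 bp for MTF2, 3953 bp for EZH2, 8941 bp for H3K27me3 and 4970 bp for H3K4me3. At Sema5b they were 2591, 2984, 10789 and 3310 bp in the same order, and its H3K27me3 domain was the widest of any member. The narrowest EZH2 peak of the family was that of Sema3a, the secreted repellent that collapses growth cones, with 254 bp of EZH2 and 346 bp of MTF2 under 2317 bp of H3K27me3. The other class 3 semaphorins with marks, Sema3c, Sema3d, Sema3e and Sema3f, had EZH2 widths of 523 to 1271 bp. In Sema4c, Sema4f, Sema5a, Sema6b, Sema6d and Sema7a, the Polycomb-marked members of the remaining classes, the EZH2 widths ran from 387 to 1893 bp.

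Among netrins, Ntn1, the founding attractant of commissural axons, had 2 MTF2 and 2 EZH2 promoter peaks. The widest, 2857 bp of MTF2 and 2695 bp of EZH2 at an internal TSS, lay inside an H3K27me3 peak of 4379 bp, and the other pair (912 and 1061 bp), near the reference TSS, lay outside it. Ntn4 had 2197 bp of MTF2, 2502 bp of EZH2 and 5089 bp of H3K27me3. The H3K27me3 peak of Ntn3 (3156 bp) and its H3K4me3 peak (10870 bp) also touched the promoter of the neighbouring gene Tbc1d24, so neither can be given to Ntn3 alone; no other wild-type peak of a member was shared with another gene. Among Slits, the ligands of Robo, Slit2 had 3541 bp of MTF2, 3565 bp of EZH2 and 8170 bp of H3K27me3. Slit3 (1803, 1743 and 3866 bp) and Slit1 (1270, 1255 and 4213 bp) had narrower domains.

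Among ephrins, Efna5 had the widest EZH2 peak of all 63 genes, at 4098 bp, with 3932 bp of MTF2 and 7734 bp of H3K27me3. Efna3 followed with 3857, 3903 and 5377 bp. Efnb2 had 2205 bp of EZH2, 1926 bp of MTF2 and 2923 bp of H3K27me3. At the other end Efna2 had 212 bp of MTF2, 412 bp of EZH2 and 2210 bp of H3K27me3. Efna3 lies between Efna1 and Efna4 on chromosome 3, and these neighbours differed. Efna1 had H3K27me3 of 4939 bp without MTF2 or EZH2, and Efna4 had H3K4me3 of 4352 bp as its only mark.

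Among plexins, the semaphorin receptors, Plxnc1 had the widest EZH2 peak (2838 bp, with 3094 bp of MTF2 and 7332 bp of H3K27me3). Plxnd1, which acts in vessels as well as in neurons, had 2697, 2526 and 7832 bp, and Plxna4 had 2555, 2382 and 7821 bp. Plxna1 and Plxna2 had EZH2 peaks of 343 and 539 bp only. Among UNC5 receptors, which turn the response to netrin into repulsion, Unc5b had 2235 bp of EZH2, 2218 bp of MTF2 and 7496 bp of H3K27me3, and Unc5d 2116, 1919 and 5878 bp. Unc5c stood close to them with 1948, 2076 and 6219 bp. Unc5a had the widest H3K27me3 of that family (8716 bp) over the narrowest EZH2 (1471 bp).

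The Robos were split. Robo3, which controls midline crossing, had 2580 bp of EZH2, 2078 bp of MTF2 and 10587 bp of H3K27me3, and Robo2 had 1136, 1299 and 4552 bp, whereas Robo1 had H3K4me3 of 2544 bp as its only mark. Among Eph receptors the widest EZH2 peaks were at Epha5 (2259 bp) and Epha6 (2040 bp), with H3K27me3 of 6514 and 4643 bp. The widest H3K27me3 domains were those of Epha10 (10099 bp) and Epha7 (7774 bp). At Epha10 the promoter peaks of MTF2 (207 bp) and EZH2 (448 bp) were small, and 3 more MTF2 peaks of 485 to 930 bp lay inside the gene. Among the other marked Eph receptors the EZH2 widths were 382 bp at Epha3, 786 bp at Epha4, 1814 bp at Epha8 and 1813 bp at Ephb1.

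At 4 members only some of the Polycomb marks touched the promoter. Ephb2 had EZH2 of 398 bp and H3K27me3 of 3127 bp without MTF2, and Ephb6, a receptor without kinase activity, had 206 and 1892 bp without MTF2. Efna1 and Efnb3 (H3K27me3 of 2866 bp) had neither MTF2 nor EZH2. The EZH2 peaks of Ephb2 and Ephb6 are among the narrowest of the 44. Of all genes, 0.893% had the pattern of Ephb2 and 2.48% that of Efna1. Whether these promoters hold MTF2 below the calling threshold of the list was not tested.

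In gene-trap cells no EZH2 peak touched any guidance promoter (0 of 63; 0.772% of all genes). Of the 44 members with EZH2 in wild-type cells, 0 kept it. That allows a share of up to 6.82% by a limit of 3 counts and up to 8.04% by the exact interval. Of all genes with EZH2 4.34% kept it (154 of 3549) and 95.7% lost it. In the background, kept EZH2 went with width: 50.4% of genes with a peak wider than that of any member (over 4098 bp) kept it, and 1.25% of the 3211 genes within the members' range of 206 to 4098 bp did. The count of 0 is thus near the background for promoters of this width. No member gained EZH2 (0.0349% of genes without it did). No gene-trap EZH2 peak lay inside any wild-type EZH2 promoter peak of a member (5.64% of all genes with wild-type EZH2 had one). None lay in a member's gene body. The gene-trap EZH2 peak nearest to any member was 130 kb from the TSS of Sema4f.

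**Figure D3:**
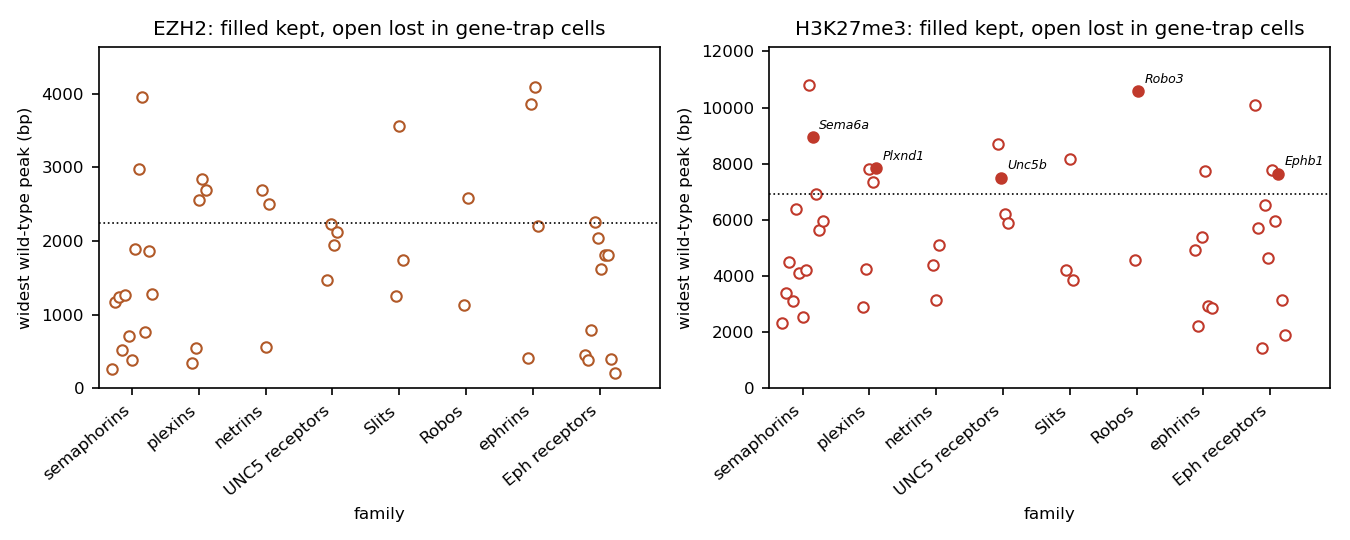
Widest wild-type promoter peak (bp, linear axis) of each member with EZH2 (left) and H3K27me3 (right), by family; filled points are promoters that kept the mark in gene-trap cells and open points those that lost it, and the dotted line is the lower bound of the widest of 5 width classes over all genes. All 44 EZH2 points are open, and the 5 filled H3K27me3 points lie between 7496 and 10587 bp.

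Gene-trap H3K27me3 touched 5 guidance promoters (7.94%; 2.82% of all genes). They were 5 of the 46 guidance promoters that had it in wild-type cells, Sema6a, Plxnd1, Unc5b, Robo3 and Ephb1 (10.9%, interval 3.62 to 23.6). Over all genes 14% kept it (577 of 4135) and 86.0% lost it, and within the members' width range of 1428 to 10789 bp 8.50% kept it, so the members' share is near the background. The 5 that kept the mark were 1 ligand of 25 and 4 receptors of 21; the difference was not tested. All 5 were among the 14 members with the widest domains, the top of 5 width classes (6903 bp or more). Over all genes 48.7% of that class kept the mark, but the class runs to 133253 bp. Of genes with domains wider than any member's (over 10789 bp) 73.1% kept it, so 48.7% is not a share at the members' widths. None of the 32 members in the narrower classes kept the mark. Over all genes 0.847, 2.29, 5.20 and 12.7% of these classes kept it, from the narrowest up, so few were to be found among 32. Wide domains were lost as well: Sema5b (10789 bp), Epha10 (10099 bp), Unc5a (8716 bp), Slit2 (8170 bp), Plxna4 (7821 bp), Epha7 (7774 bp), Efna5 (7734 bp) and Plxnc1 (7332 bp). No member gained H3K27me3 (0.0422% of genes did).

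The remnants were shorter than the wild-type domains. Of the 257226 bp under H3K27me3 at guidance promoters, 16173 bp (6.29%) lay under a gene-trap peak. Over all genes within the members' width range the share was 5.45%, near that of the members, and over all genes, wider domains included, it was 28.5%. At Robo3 the domain went from 10587 bp (chr9:37426281-37436867) to 3480 bp (chr9:37431099-37434578), which covers 32.9% of it and holds the TSS. At Plxnd1 it went from 7832 bp (chr6:115989705-115997536) to 3111 bp (chr6:115991426-115994536), or 39.7%. The Plxnd1 remnant begins 469 bp into the gene and spans exon and intron sequence.

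At Sema6a the domain went from 8941 to 3116 bp, or 34.9%, all of it intronic and 725 bp or more from the reference TSS. Sema6a has 5 annotated TSSs, and the remnant held none of them but lay nearer to another than to the reference TSS. At Unc5b the domain went from 7496 bp (chr10:60827464-60834959) to 2055 bp (chr10:60828885-60830939), or 27.4%, and this remnant too is intronic. At Ephb1, an Eph receptor of retinal axons, 7638 bp (chr9:102347621-102355258) became 3334 bp (chr9:102350449-102353782), or 43.7%, intronic and 911 bp from the TSS, so that the peak covers 4.50% of the promoter window. The sequences of Unc5b and Ephb1 given above lie in or at the edge of these remnants.

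The remnants lay downstream of the TSS. In 5 of 5 members the centre of the gene-trap peak was downstream, against 73.8% of the 301 genes in the members' width range that kept the mark, and the peak held a TSS in 1 of 5, against 40.9% of those genes. With 5 members these shares are loose, and the difference was not tested. A sixth remnant lay inside the wild-type domain of Epha10 but outside its promoter window, an intronic peak of 1077 bp (chr4:124882750-124883826) over 10.7% of that domain. Counted with it, 6 of 46 members had a gene-trap peak inside their wild-type H3K27me3 domain (13.0%; 15.8% of all genes with wild-type H3K27me3). None of the 6 had an EZH2 peak in the gene-trap list.

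**Figure D4:**
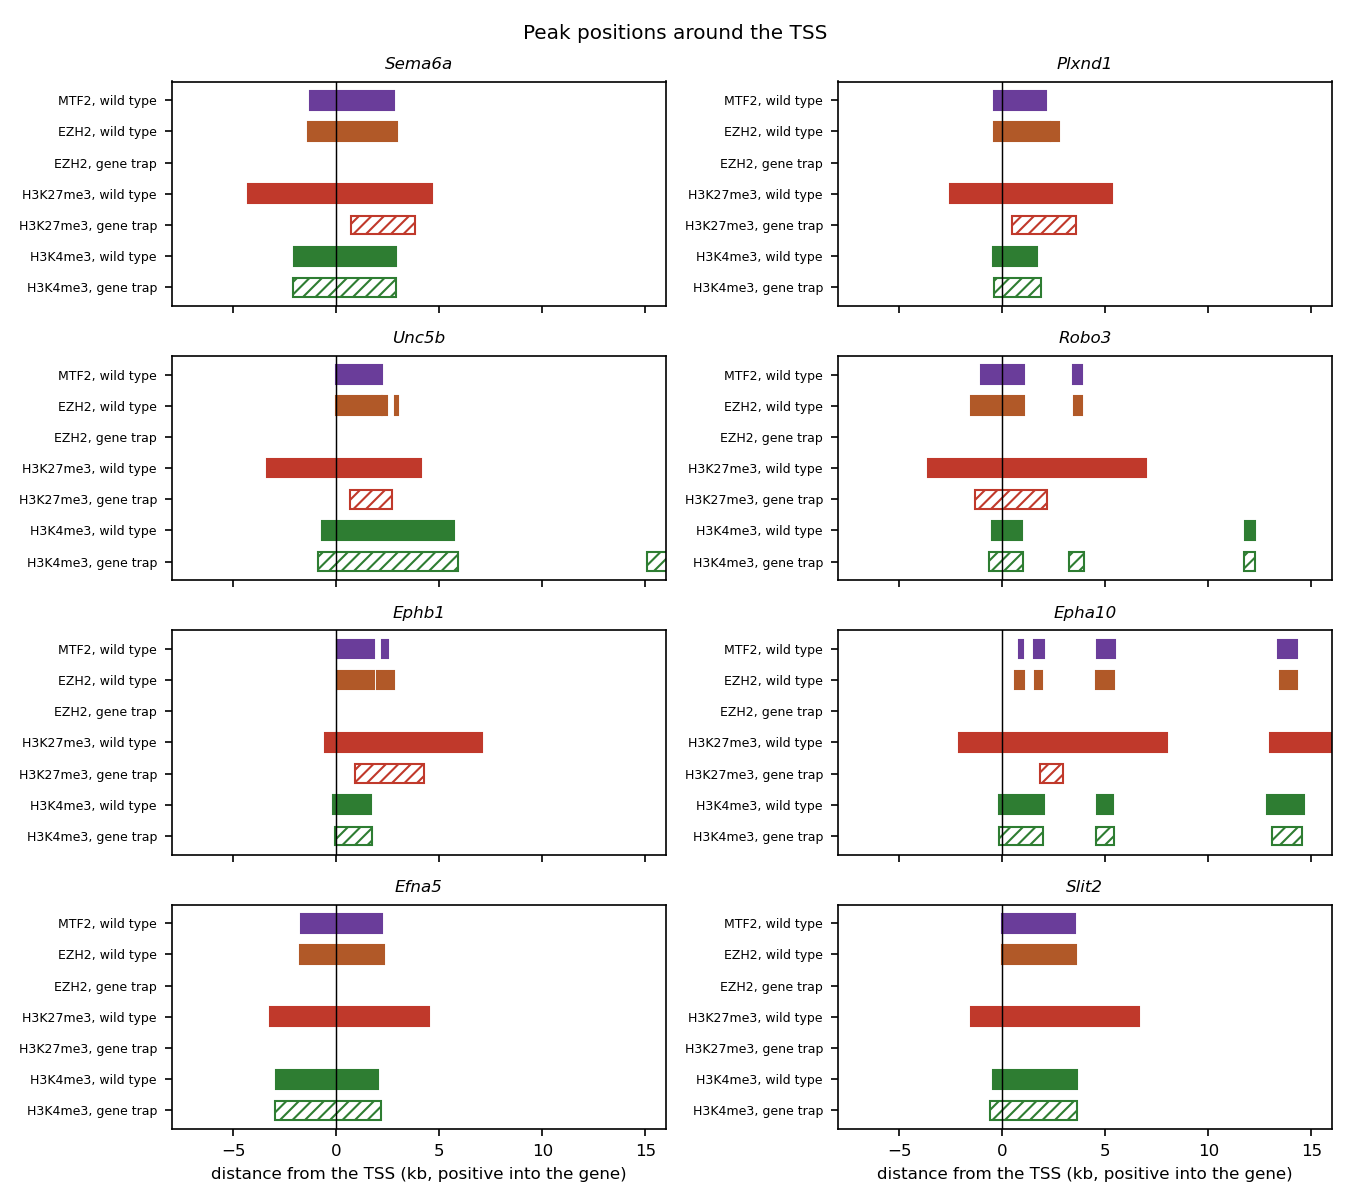
Positions of the peaks of the 7 lists (rows, one bar per peak) around the TSS of members named in the text, from 8 kb before to 16 kb after it (horizontal axis, kb, positive into the gene). The gene-trap H3K27me3 bars of Sema6a, Plxnd1, Unc5b and Ephb1 begin after the TSS, and that of Robo3 spans it.

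H3K4me3 stayed at guidance promoters. Of 60 members with the mark, 59 kept it in gene-trap cells (98.3%; 98.8% of all genes with wild-type H3K4me3). With Ntn5 the gene-trap list again touched 60 (67.5% of all genes). Sema4a, whose wild-type peak was 426 bp wide, was the 1 that lost it (1.18% of genes with the mark did). Ntn5 gained a peak of 389 bp (4.02% of genes without the mark did). Both peaks were shorter than that of any other member with H3K4me3, and neither promoter had a Polycomb mark. With H3K27me3 gone from most, 41 of the 46 bivalent guidance promoters carried H3K4me3 alone in gene-trap cells (89.1%; 85.1% of all bivalent genes).

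H3K4me3 length was compared at members with and without H3K27me3, and the difference between them was not tested. Length is the summed width of the promoter peaks, and its change is the log2 ratio of gene-trap to wild-type cells. Of the 46 members with H3K27me3, 30 had a longer H3K4me3 in gene-trap cells (65.2%; 50.3% of all genes with H3K27me3), with a median change of 0.05. Of the 13 without H3K27me3 and with H3K4me3 in both, 4 were longer (30.8%; 19.0% of all genes without H3K27me3 and 27.9% of all genes), with a median of -0.16. For all genes the medians were 0.00 with and -0.19 without H3K27me3, so the 2 kinds of member stood in the same order as genes at large. These medians are small, and without replicates they cannot be set against a spread.

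**Figure D5:**
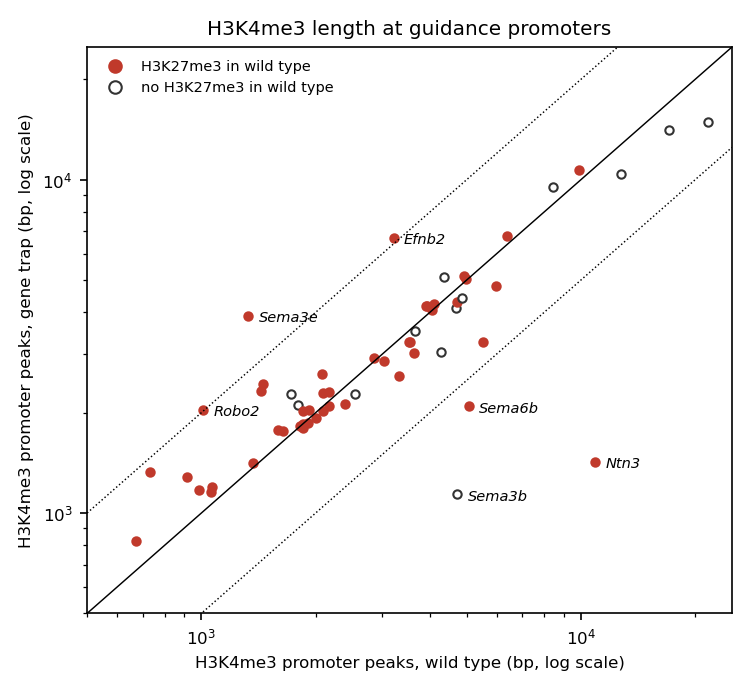
Summed width of H3K4me3 promoter peaks in wild-type (horizontal) and gene-trap cells (vertical; both bp, log scale), 1 point per member with the mark in both (59), coloured by wild-type H3K27me3; the line marks equal length. Sema3e, Efnb2 and Robo2 stand above it by 2-fold or more, and Ntn3, Sema3b and Sema6b below it.

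Single members moved by more. At Sema3e, a ligand of plexin D1, H3K4me3 went from 1330 to 3901 bp (log2 change 1.55), of which 2817 bp lay in introns. At Efnb2, an ephrin of arteries and of axon targets, it went from 3211 to 6705 bp (1.06), and at Robo2 from 1013 to 2036 bp (1.01). All 3 had lost H3K27me3, as had 89.1% of the members and 86.0% of all genes with that mark in wild-type cells. These are 3 of 59 members (5.08%), and 1.25% of all genes with H3K4me3 in both cell types were 2-fold or more longer. Counted only where H3K27me3 was present in wild-type cells, the shares were 6.52% of 46 members and 2.49% of all genes.

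As many members were 2-fold or more shorter (3 of 59, 5.08%; 4.78% of all genes with H3K4me3 in both cell types). H3K4me3 at Sema3b went from 4726 to 1138 bp (-2.05) and at Sema6b from 5059 to 2090 bp (-1.28). At Ntn3 the promoter peak went from 10870 to 1426 bp (-2.93), but the wild-type peak, which reached Tbc1d24, was broken into pieces: a second gene-trap peak of 5610 bp lay in the gene body, and the gene-trap list still covered 64.1% of that length. Ntn3 and Sema6b had also lost H3K27me3, and Sema3b had none at its promoter in wild-type cells.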

How the data were processed

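ChIP-seq peak lists from 14 libraries were used. The submitters' processing notes name MACS2 2.7, BWA 0.7.10-r789 and CASAVA with the mm10 (GRCm38) build; tool roles, thresholds and controls are not given in the sources used here. Per the labels the reads were 75 bases long. The deposited values are peak positions made by the authors, chromosome, start and end in bp, with no other measurement. The authors' list names carry the words MAnorm and unbiased, which the sources used here do not explain.

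Starts were changed to positions counted from 1. A peak counted for a gene if it touched, by 1 bp or more, the window 1 kb (1000 bp) either side of any protein-coding TSS of GENCODE basic M21. A mark was kept if a gene-trap peak of the same antibody touched that window, lost if none did and gained if only gene-trap peaks did. Widths are of the widest such peak unless a sum is named. Body peaks touch the gene but not the window. Shares carry exact 95% intervals, and a count of 0 is given the limit of 3 counts. CpG and GCG were counted in GRCm38. The overlap scripts were tested on simulated peaks. Python 3.11.15, SciPy 1.17.1, pysam 0.24.0, samtools 1.23.1 and matplotlib 3.10.9 were used.

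Samples were grouped by antibody and genotype. Named members are the 2 per family with the widest EZH2 and H3K27me3 peaks, those with discordant marks, those that kept H3K27me3, those that gained or lost a mark, and those without Polycomb marks; others were named after their values were seen. The members and lists were chosen with earlier results of these data known. Tests over gene sets were not run.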

Additional observations from a re-analysis of the deposited data

How the results depend on the processing

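The 7 counts on guidance promoters were recomputed with windows of 500 and 2500 bp, with principal TSSs only, with the TSS required inside the peak, with peaks of at least 500 bp, with at least 200 bp of overlap and with shared peaks counted once; the 3 counts of kept marks were also recomputed with a gene-trap peak anywhere inside the wild-type peak. Of 52 alternative values, 49 stayed within 1.5 times, but some of these could not move. No member shared a peak with another member, so counting shared peaks once could not change a count. The gene-trap EZH2 peak nearest to any member was 130 kb from the TSS, so no window used here could reach it. With the TSS required inside the peak, MTF2 was found at 27 promoters, EZH2 at 29, and H3K27me3 was kept at 1 of 39 (Robo3; 2.56%). EZH2 was kept at 0 members under each of these settings, and H3K27me3 at 4 to 6 under the settings other than that one: Ephb1 dropped out with 500 bp windows or 200 bp of overlap, and Epha10 came in with 2500 bp windows or peaks inside the domain. The number of members with longer H3K4me3 stayed at 29 or 30 of those with H3K27me3 under alternatives chosen after seeing the data.

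No paired analysis was possible because both libraries of a group share 1 list. For the same reason no library was left out in turn. The depth is unknown, which limits what an absent peak shows.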

Other observations

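Guidance genes also carried Polycomb peaks that touched the gene outside the promoter window, counted here as body peaks. Some lay close to that window: MTF2 peaks at Plxnc1, Epha7 and Ephb1 were centred 2254 to 2346 bp into the gene. At Efna2, 1312 of the 1409 bp of the MTF2 body peak lay outside the gene. Members are long genes, with a median length of 46.3 kb against 17.6 kb for all genes, and the part of length in these counts was not tested. MTF2 peaks outside the promoter were found in 12 members (19.0%; 4.81% of all genes), EZH2 in 18 (28.6%; 5.34%) and H3K27me3 in 15 (23.8%; 5.55%). Of the 14 MTF2 peaks in bodies, 7 had as many exonic as other bases or more, as did 28.7% of those in all genes. Several sat near the 3′ end of the gene: at Sema5b (1165 bp, 96.3% of the way along the gene), at Sema6b (1179 bp, 92.3%), at Efnb2 (421 bp, 93.2%) and at Sema6c (1723 bp, 92.9%). Sema6c had no Polycomb mark at its promoter, and the same place in its body also held EZH2 (1857 bp) and H3K27me3 (3406 bp). Sema3b (EZH2 of 400 bp and H3K27me3 of 2860 bp) and Ntn5 (H3K27me3 of 4320 bp) likewise had marks in the body and none at the promoter. In gene-trap cells the only Polycomb peak in the body of a member was the H3K27me3 peak of Epha10.

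Other genes of the pathway were counted in the same way. Of 22 co-receptors and other surface proteins, 18 had MTF2, 17 EZH2 and 17 H3K27me3 at the promoter (16.4, 17.1 and 20.0% of all genes). The neuropilins, which pair with plexins to bind class 3 semaphorins, had wide domains: Nrp1 had 4267 bp of EZH2 and 10027 bp of H3K27me3, and Nrp2 had 5818 and 7552 bp, and neither kept them in gene-trap cells. Dcc, the netrin receptor, had 208 bp of MTF2 and 2299 bp of H3K27me3 with no EZH2 and no H3K4me3. Flrt2 was the 1 gene of these 22 that kept EZH2, as a peak of 302 bp, and H3K27me3 remained at Flrt2 (2321 bp), Rgma (2024 bp) and Ntng2 (5622 bp). Of 30 intracellular proteins of the pathway, 9 had MTF2, 11 EZH2 and 11 H3K27me3, and 0 kept EZH2 or H3K27me3, while H3K4me3 remained at 29 of the 29 that had it. Over all genes with the mark in wild-type cells 4.34% kept EZH2, 14% H3K27me3 and 98.8% H3K4me3, so these counts of kept marks are near the background.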
